A study of Caenorhabditis elegans with 6 samples.

Results

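The 42 genes described here encode nuclear subunits of the 5 complexes of the mitochondrial respiratory chain, or act beside them, in the nematode Caenorhabditis elegans. They were taken by gene name from a table of 45132 genes, and all 42 names were found. Complex I supplied 8 genes, complex II 5, complex III 7, complex IV 7 and complex V 11. The other members were the electron carrier cytochrome c (cyc-2.1) and 3 genes (cox-10, cox-11 and cox-17) that carry the name of complex IV but, from textbook knowledge, help to build the enzyme and are not subunits of it. These 3 were kept apart from the 38 subunits.

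Complexes I and II pass electrons from NADH and succinate to ubiquinone, complex III hands them to cytochrome c, and complex IV gives them to oxygen. Complexes I, III and IV pump protons across the inner mitochondrial membrane, and complex V, the ATP synthase, lets the protons back and makes ATP. Complexes I, III, IV and V are built from proteins of both the nuclear and the mitochondrial genome. The mitochondrially encoded subunits are not analysed here. In C. elegans, mutants of mev-1 (complex II), gas-1 (complex I), isp-1 (complex III) and nuo-6 (complex I) are known for altered lifespan or stress resistance.

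All 6 libraries came from whole wild-type worms of the N2 strain, so the members' values are means over every tissue. In both groups larvae were treated by RNA interference (RNAi), moved as young adults to E. coli OP50 at 20 °C and collected at an age of 5 days. The control group (3 libraries) received the empty vector L4440, and the treated group (3 libraries) received RNAi against vit-5, a gene of the yolk protein vitellogenin. The labels do not say whether the 3 libraries of a group came from separate cultures, so the spread between them may be technical. RNA was measured in bulk, where fewer cells of a type and less RNA per cell cannot be told apart.

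Levels are the authors' FPKM values, fragments scaled by transcript length and by the fragments mapped in a library, which allow levels of different genes to be compared. Errors are SDs over n = 3 libraries a group unless stated otherwise. The library totals lay between 1142665 and 1263514 FPKM, read depth was not given in the sources used here, and 12041 to 13503 genes reached 1 FPKM in a library. Ribosomal RNA genes took 0.209% to 2.68% of a total, with the highest shares in control replicate 2 and vit-5 RNAi replicate 3. The targeted gene vit-5 stood at 2335, 1396 and 1573 FPKM in the control libraries and at 116, 51.6 and 22.8 FPKM in the vit-5 RNAi libraries. All 3 treated libraries thus had the low level that their label calls for, although the limma adjusted p of 0.0552 missed the threshold of 0.05. Markers of body wall muscle (6 of 7), pharyngeal muscle (4 of 4), intestine (4 of 4 found), neurons (6 of 7) and oocytes (8 of 8) were at 1 FPKM or more in every library. None of the 7 sperm markers was, and their summed level lay between 1.35 and 4.73 FPKM in the controls and between 0.970 and 5.68 FPKM in vit-5 RNAi worms.

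The members were abundant and, in median, more even between replicates than all tested genes. All 42 passed the filter of at least 1 FPKM in at least 3 libraries, and 33 of them had a mean of at least 100 FPKM, a level reached by 11.9% of the 12908 tested genes. Together they made up 2.32% ± 0.156 of the control total and 2.08% ± 0.189 of the vit-5 RNAi total. Most of that came from members of the ATP synthase (0.867% ± 0.0467 of the control total) and of complex IV (0.792% ± 0.0602). Members of complex I held 0.129% ± 0.00447, those of complex II 0.0923% ± 0.000409 and those of complex III 0.161% ± 0.00544. Further nuclear subunits of complexes I, III and V were not in these sums, so the shares do not rank whole complexes. The median coefficient of variation of the members was 9.78% in the controls and 12.2% in vit-5 RNAi worms, against 20.5% and 22.6% over all tested genes. In the controls 41 of the 42 members varied less than the median gene. In vit-5 RNAi worms several members varied more than the median gene, up to 37.5% in asg-2 and 45.1% in gas-1. The variation of other genes at the members' levels was not compared.

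**Figure D1:**
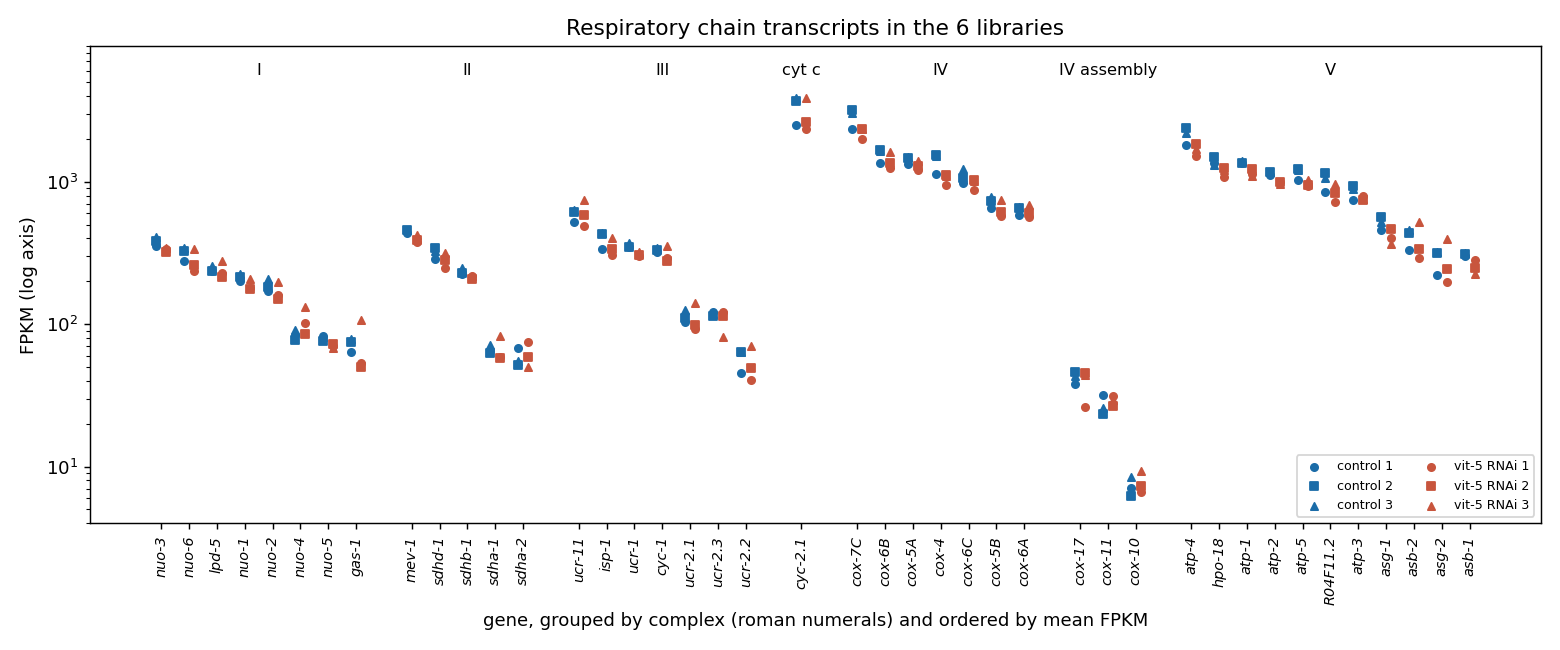
FPKM (log axis) of each of the 42 members in the 3 control libraries (blue) and the 3 vit-5 RNAi libraries (red), with 1 symbol for each library, grouped by complex and ordered by mean level. Complex IV and complex V subunits sit highest, cyc-2.1 reaches 3155 FPKM on average, and the 3 assembly factors lie lowest.

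The only comparison of the design set vit-5 RNAi against control RNAi. Transcripts of 37 of the 42 members were lower on average in vit-5 RNAi worms, whereas 20.5% of all tested genes had a log2 fold change below 0. That share was 54.5% among genes of 100 to 1000 FPKM and 79.3% among those of at least 1000 FPKM. Of the members, 33 were at these levels. No single member passed the test. With limma on log2(FPKM + 1), 0 of 42 members had an adjusted p under 0.05 in either direction, beside a background of 0% lower and 0% higher. At an unadjusted p under 0.05, 1 member (cox-4) was lower, against 0.906% of all tested genes, and 0 were higher, against 26.2%. When control replicate 1 was left out 6 members were lower (1.31% of all genes), and when vit-5 RNAi replicate 3 was left out 5 were (1.08%). Without control replicate 2 the count was 0 (0.209% of all genes), as it was without control replicate 3 (0.294%).

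In FPKM, every gain elsewhere lowers the share left for the rest, so fold changes are given here as such and relative to the all-gene shift of 0.34, the median over every gene tested. Relative to that shift all 42 members lay below 0, which by construction 50% of all genes do, with a median of -0.52 and a range from -0.74 (cox-4) to -0.03 (nuo-4). The 3 vit-5 RNAi values lay wholly under the 3 control values in 11 members, nuo-3, nuo-5, mev-1, sdhb-1, ucr-1, cox-4, cox-7C, asb-1, atp-1, atp-2 and hpo-18, where 3.15% of all genes did the same. They lay wholly above in 0 members, against 30.8% of all genes. Leaving out control replicate 1 brought the wholly lower members to 22 (5.42% of all genes), and leaving out vit-5 RNAi replicate 3 brought them to 25 (5.16%). An exact permutation test of 3 against 3 libraries cannot give a p under 0.1, so this separation is a description.

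**Figure D2:**
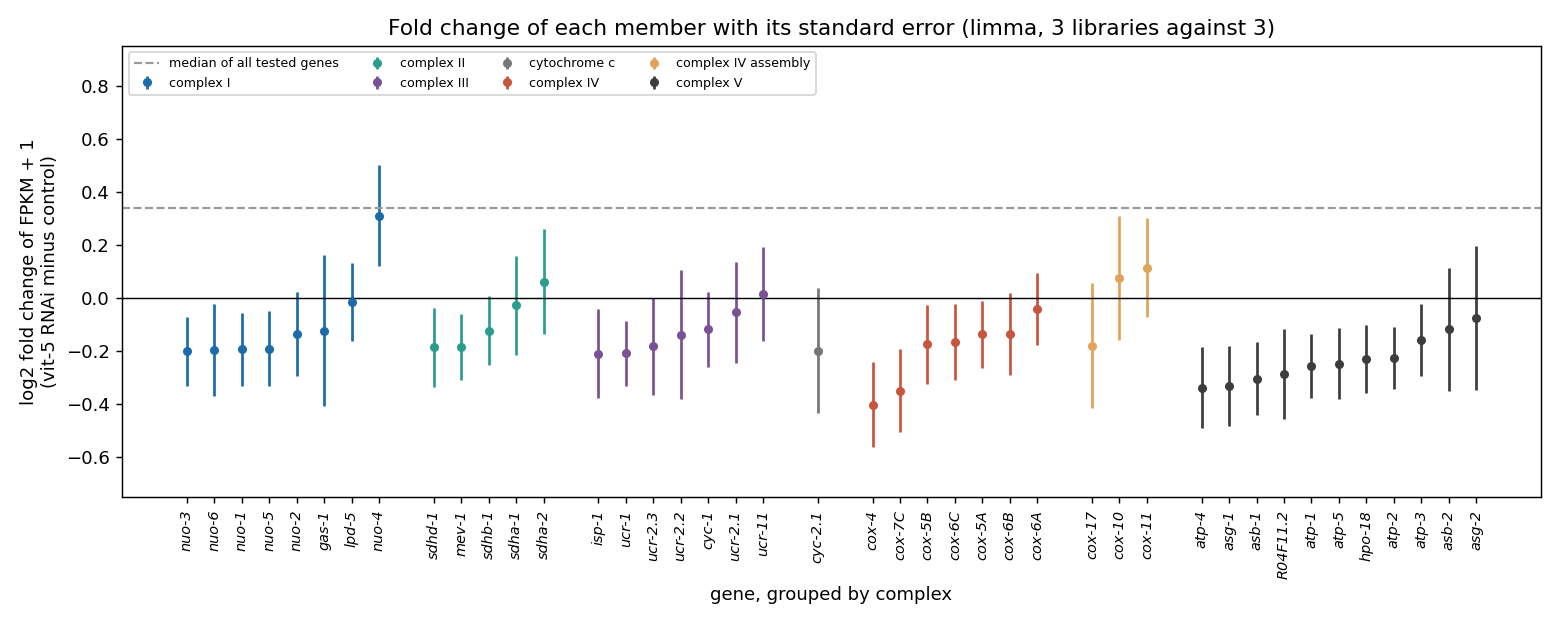
Log2 fold change of FPKM + 1 (vit-5 RNAi minus control) of each member, with its standard error from limma as the bar, coloured by complex. The solid line marks no difference, the dashed line the median of all tested genes at 0.34, and all 42 points sit under the dashed line, with nuo-4 nearest to it.

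Another scaling moved the share of genes above and below 0 in the whole table. When libraries were scaled by the median of ratios, the all-gene median became 0.03 and 47.4% of all genes lay below 0. All 42 members then lay below 0 with a median of -0.54, and 28 of them were lower at an unadjusted p under 0.05, against 12.1% of all genes. Among genes of 100 to 1000 FPKM that share was 46.3% (17 of 22 members). Among genes of at least 1000 FPKM it was 66.2% (10 of 11 members). The vit-5 RNAi values of 26 members lay wholly under the controls, against 16.3% of all genes. With limma again 0 of 42 had an adjusted p under 0.05 (background 0%), and the smallest member value was 0.186. Under quantile scaling, which gives all libraries the same distribution of levels, the members' relative median was -0.15 and 37 of 42 lay below the all-gene median. There 1 member had a limma unadjusted p under 0.05, counting both directions, beside 5.77% of all genes lower and 5.77% higher.

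The level of a gene went along with its fold change, and the members are high genes. Genes with a mean of 1 to 10 FPKM had 0.45 as their median log2 fold change, those of 10 to 100 FPKM 0.32, those of 100 to 1000 FPKM -0.03 and those of at least 1000 FPKM -0.23. The 8 members of 10 to 100 FPKM had a median of -0.07 and all 8 lay below the median of their level. The 22 members of 100 to 1000 FPKM had a median of -0.18, and 20 of them lay below that of their level. The 11 members of at least 1000 FPKM had a median of -0.23, equal at this precision to that of the 213 genes at their level, and 6 of them lay below it. The only member under 10 FPKM, cox-10, had 0.08, below the median of its level.

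The share of genes with separated groups depended on the level as well. Among genes of 100 to 1000 FPKM 13% had wholly lower vit-5 RNAi values, as did 5 of the 22 members there. Among genes of at least 1000 FPKM it was 18.8%, and 5 of the 11 members. After median-of-ratios scaling these shares were 54.1% (15 of 22 members) and 69% (9 of 11 members). Genes at the levels of most members thus lay below the all-gene median too. Whether the members differ from such genes was not tested.

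**Figure D3:**
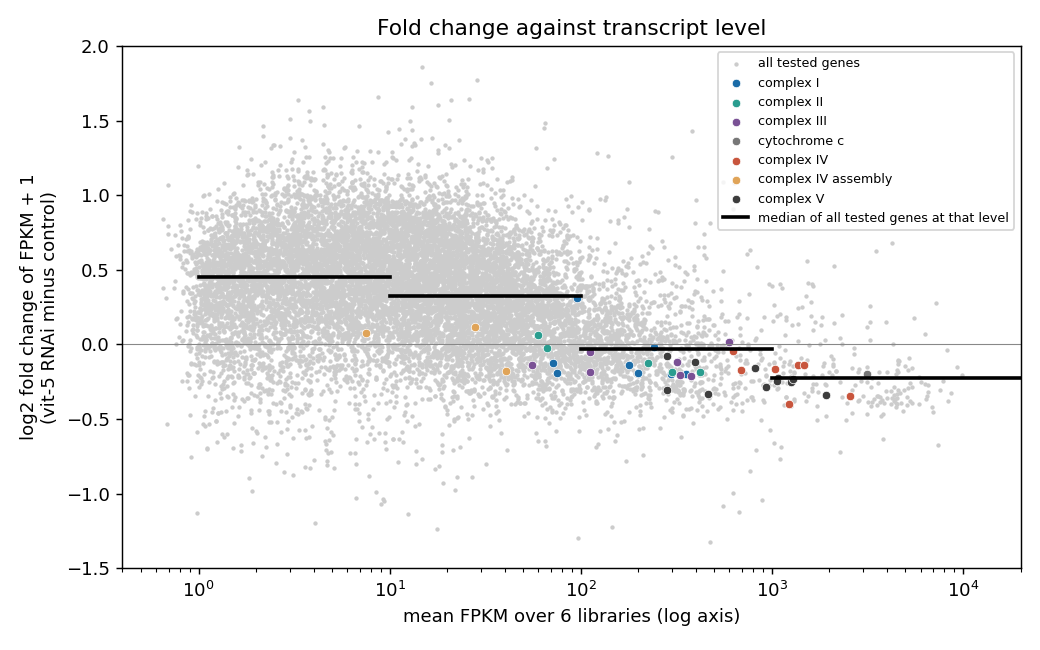
Mean FPKM over the 6 libraries (log axis) against the log2 fold change (vit-5 RNAi minus control) for all tested genes (grey) and the 42 members (coloured by complex), with black bars at the median of all genes of 1 to 10, 10 to 100, 100 to 1000 and at least 1000 FPKM. The bars step down from 0.45 to -0.23, the members of 10 to 1000 FPKM lie mostly under their bar and those above 1000 FPKM lie around it. The axis leaves out 10 of the tested genes, none of them a member.

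The 8 complex I members are 2 of the subunits that bind NADH and its first iron-sulphur centres (nuo-1 and nuo-5), the subunits of the arm that leads electrons to ubiquinone (gas-1 and nuo-2) and accessory subunits (nuo-3, nuo-4, nuo-6 and lpd-5). Their median log2 fold change was -0.16, or -0.50 relative to the shift, and 7 of 8 lay below 0. The highest in level and the lowest in fold change was nuo-3, an accessory subunit (chromosome IV, 14796421 to 14797462, WBcel235). It stood at 353, 383 and 411 FPKM in the controls against 336, 319 and 342 FPKM in vit-5 RNAi worms. All 3 treated values lay under all 3 control values, and its log2 fold change was -0.20 ± 0.13 (SE; adjusted p = 0.332 by limma). Its span overlaps another protein-coding gene on the same strand, Y57G11C.1147, so reads could be split between them.

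The core subunit nuo-5 was separated too, with 80.02 ± 3.75 FPKM in the controls against 69.99 ± 2.44 FPKM in vit-5 RNAi worms. The exception of the complex was nuo-4, an accessory subunit of the membrane arm (chromosome III, 7156026 to 7158809). Its levels were 83.6, 77.7 and 90.98 FPKM in the controls against 101, 85.3 and 132 FPKM in vit-5 RNAi worms. The groups overlapped, since vit-5 RNAi replicate 2 lay under control replicate 3. Its log2 fold change of 0.31 ± 0.19 (SE; adjusted p = 0.307 by limma) was the highest of the 42 and lay close to the all-gene shift.

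Complex II, succinate dehydrogenase, is wholly nuclear encoded. Its median was -0.12, or -0.46 relative to the shift, with 4 of 5 members below 0. The most abundant was mev-1, the cytochrome b subunit in the membrane (chromosome III, 10334277 to 10335168), at 434, 460 and 456 FPKM in the controls against 380, 389 and 420 FPKM in vit-5 RNAi worms. The groups did not overlap, and the log2 fold change was -0.18 ± 0.12 (SE; adjusted p = 0.353 by limma). The other membrane anchor, sdhd-1 (chromosome II, 11049144 to 11049913), had the lowest fold change of the complex, and here the groups overlapped. It measured 287, 344 and 329 FPKM in the controls against 249, 283 and 314 FPKM in vit-5 RNAi worms. The iron-sulphur subunit sdhb-1 was separated at 234 ± 13.1 and 215 ± 7.03 FPKM.

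The flavoprotein that oxidises succinate is encoded by 2 paralogues, and both were the least abundant of the complex. Levels of sdha-1 were 65.3, 63.1 and 71.7 FPKM in the controls against 58.8, 57.4 and 82.8 FPKM in vit-5 RNAi worms. Levels of sdha-2 were 67.8, 52.0 and 54.8 FPKM in the controls against 74.7, 58.7 and 50.2 FPKM in vit-5 RNAi worms. Both pairs of groups overlapped, and the 2 genes ordered the treated libraries differently: vit-5 RNAi replicate 3 was the highest for sdha-1 and the lowest for sdha-2. Added together they came to 125 ± 9.14 and 128 ± 9.86 FPKM.

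In complex III, 6 of the 7 members lay below 0. The median was -0.14 (-0.48 relative to the shift). The most abundant, ucr-11 (chromosome I, 6552834 to 6553379), was the one above 0. It measured 526, 615 and 636 FPKM in the controls against 492, 580 and 742 FPKM in vit-5 RNAi worms, so that the treated libraries enclosed the controls. Its log2 fold change was 0.01 ± 0.18 (SE; adjusted p = 0.965 by limma). The lowest was isp-1, the Rieske iron-sulphur protein (chromosome IV, 8134016 to 8136055), at 339, 433 and 439 FPKM in the controls against 304, 338 and 406 FPKM in vit-5 RNAi worms. These groups overlapped, with a log2 fold change of -0.21 ± 0.17 (SE; adjusted p = 0.434 by limma).

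The core protein gene ucr-1 was the one member of complex III with separated groups. It stood at 348, 351 and 370 FPKM in the controls against 299, 306 and 319 FPKM in vit-5 RNAi worms, with a log2 fold change of -0.21 ± 0.12 (SE; adjusted p = 0.295 by limma). Cytochrome c1, encoded by cyc-1, measured 332 ± 10.6 and 307 ± 38.9 FPKM. The second core protein has 3 paralogues, ucr-2.1, ucr-2.2 and ucr-2.3, whose control means were 113 ± 11.04, 57.7 ± 10.7 and 118 ± 3.82 FPKM. After vit-5 RNAi they were 111 ± 25.4, 53.1 ± 15.3 and 105 ± 21.6 FPKM, and the groups overlapped in all 3.

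The carrier between complexes III and IV, cytochrome c, was the most abundant member. The cyc-2.1 gene (chromosome IV, 4747904 to 4748449) measured 2517, 3697 and 3870 FPKM in the controls against 2341, 2630 and 3877 FPKM in vit-5 RNAi worms. The lowest control lay under 2 of the treated libraries and the highest treated library lay above all controls, and the log2 fold change was -0.20 ± 0.24 (SE; adjusted p = 0.601 by limma). A second cytochrome c gene, cyc-2.2, was listed at the file floor of 0.0001 FPKM in 5 of 6 libraries and at 0.248 FPKM in control replicate 1, and was not tested.

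All 7 subunits of complex IV, cytochrome c oxidase, lay below 0. Their median was -0.16 (-0.50 relative to the shift, and -0.034 with quantile scaling). Genes of at least 1000 FPKM had a median of -0.23. Of the subunits at that level, cox-5A, cox-6B and cox-6C lay above it and cox-4 and cox-7C below. The lowest fold change of all 42 members was that of cox-4 (chromosome I, 13658171 to 13659128), a small nuclear subunit that surrounds the mitochondrially encoded core. It measured 1140, 1549 and 1515 FPKM in the controls against 957, 1113 and 1090 FPKM in vit-5 RNAi worms. Every treated library lay under every control, though control replicate 1 came close to vit-5 RNAi replicate 2. The log2 fold change was -0.40 ± 0.16 (SE, 95% interval -0.77 to -0.04), with a limma unadjusted p of 0.0349 and an adjusted p of 0.160. In the fit that held the summed level of 6 larval cuticle and moulting genes as a covariate, its limma adjusted p was 0.0245. Those 6 genes did not move together between libraries.

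The most abundant subunit, cox-7C (chromosome I, 9773172 to 9774012), was separated as well. Its levels were 2365, 3190 and 3055 FPKM in the controls against 2014, 2351 and 2357 FPKM in vit-5 RNAi worms. The highest treated library was just under the lowest control, and the log2 fold change was -0.35 ± 0.16 (SE; adjusted p = 0.194 by limma). At the other end, cox-6A measured 586, 652 and 662 FPKM in the controls against 562, 603 and 686 FPKM in vit-5 RNAi worms, with overlapping groups and a log2 fold change of -0.04 ± 0.14 (SE; adjusted p = 0.864 by limma). The subunits cox-5A, cox-5B, cox-6B and cox-6C lay between, with log2 fold changes from -0.17 (cox-5B) to -0.14 (cox-6B).

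The 3 assembly factors were rarer than the subunits. Their median log2 fold change was 0.08 (-0.26 relative to the shift, and -0.39 with quantile scaling), and single values ran from -0.18 (cox-17) to 0.11 (cox-11). The haem O synthase gene cox-10 measured 7.08, 6.22 and 8.50 FPKM in the controls against 6.59, 7.28 and 9.35 FPKM in vit-5 RNAi worms. The copper chaperone gene cox-11 measured 31.6, 23.5 and 25.7 FPKM against 31.4, 26.8 and 29.1 FPKM. The copper chaperone gene cox-17 measured 38.2, 46.0 and 43.6 FPKM against 26.2, 45.6 and 43.6 FPKM, so that its lower mean rested on vit-5 RNAi replicate 1. Groups overlapped in all 3. A difference between the assembly factors and the subunits was not tested.

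The ATP synthase, complex V, had the lowest median of the complexes, -0.25, or -0.59 relative to the shift, and all 11 members lay below 0, between -0.34 (atp-4) and -0.07 (asg-2). All tested genes of 100 to 1000 FPKM had a median of -0.03 and those of at least 1000 FPKM -0.23, and the 11 members lay at these levels. The summed level of the 11 members was 10614 ± 930 FPKM in the controls against 8915 ± 495 FPKM in vit-5 RNAi worms. As a share of the total, the control libraries held 0.823% to 0.916% and the vit-5 RNAi libraries 0.730% to 0.787%, without overlap. For complex IV these shares were 0.723% to 0.832% and 0.652% to 0.759%, which overlapped. Differences in fold change between the complexes were not tested, and with quantile scaling the relative median of complex V (-0.11) lay above those of complexes I (-0.17), II (-0.15) and III (-0.16). That of complex IV was -0.034.

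The catalytic head of the enzyme gave even values in the controls. Its alpha subunit atp-1 (chromosome I, 12652277 to 12654655) measured 1354, 1357 and 1406 FPKM in the controls against 1126, 1228 and 1098 FPKM in vit-5 RNAi worms. Its beta subunit atp-2 (chromosome III, 5228417 to 5230536), which carries the catalytic sites, measured 1121, 1178 and 1168 FPKM in the controls against 996, 997 and 972 FPKM in vit-5 RNAi worms. For both genes the distance between the groups exceeded the range within either group except that of the treated atp-1 libraries. Log2 fold changes were -0.26 ± 0.12 for atp-1 (SE; adjusted p = 0.209 by limma) and -0.23 ± 0.12 for atp-2 (SE; adjusted p = 0.242 by limma).

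The member of complex V with the highest level and the lowest fold change was atp-4 (chromosome V, 6426246 to 6427112), a subunit known in other animals as coupling factor 6. It measured 1812, 2388 and 2213 FPKM in the controls against 1512, 1845 and 1703 FPKM in vit-5 RNAi worms, and 1 treated library lay above the lowest control. Its log2 fold change was -0.34 ± 0.15 (SE; adjusted p = 0.196 by limma). Its span overlaps T05H4.11 on the same strand, so reads could be split between them. The stalk subunits atp-3 and atp-5 had log2 fold changes of -0.16 and -0.25, and hpo-18 and R04F11.2, which the files list as uncharacterized proteins, -0.23 and -0.29.

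Within complex V, 2 subunits of the stalk and the membrane part are each encoded by a pair of paralogues. The b subunit gene asb-1 (chromosome III, 4594543 to 4595821) is known to act in the germ line and asb-2 (chromosome X, 4469766 to 4471476) in the soma. Levels of asb-1 were 303, 311 and 319 FPKM in the controls against 283, 249 and 227 FPKM in vit-5 RNAi worms, with separated groups and a log2 fold change of -0.30 ± 0.14 (SE; adjusted p = 0.196 by limma). Levels of asb-2 were 331, 435 and 457 FPKM in the controls against 293, 339 and 519 FPKM in vit-5 RNAi worms, where replicate 3 was the highest of all 6 libraries. Their log2 fold change was -0.12 ± 0.23 (SE; adjusted p = 0.762 by limma).

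The g subunit pair showed the same split. The gene asg-1 (chromosome I, 8692946 to 8693468) measured 457, 569 and 525 FPKM in the controls against 402, 463 and 368 FPKM in vit-5 RNAi worms, overlapping in 1 library. The gene asg-2 (chromosome X, 6841258 to 6842121) measured 221, 318 and 319 FPKM in the controls against 198, 243 and 398 FPKM in vit-5 RNAi worms. Again vit-5 RNAi replicate 3 was the lowest of all libraries for the autosomal copy and the highest for the copy on X. The sums of the pairs overlapped between the groups, with 719 ± 74.9 and 636 ± 94.9 FPKM for asb-1 and asb-2 and 803 ± 111 and 691 ± 84.1 FPKM for asg-1 and asg-2.

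The balance of paralogues therefore differed more between libraries than between groups. The ratio of asb-1 to asb-2 was 0.916, 0.716 and 0.697 in the controls and 0.965, 0.734 and 0.437 in vit-5 RNAi worms. That of asg-1 to asg-2 was 2.07, 1.79 and 1.65 against 2.03, 1.91 and 0.924. That of sdha-2 to sdha-1 was 1.04, 0.824 and 0.764 against 1.27, 1.02 and 0.607, and that of ucr-2.3 to ucr-2.1 was 1.178, 1.03 and 0.937 against 1.31, 1.14 and 0.580. In all 4 pairs vit-5 RNAi replicate 3 had the lowest ratio of the 6 libraries. A further pair, partly from outside the members, nduf-2.2 to gas-1 of complex I, ran from 0.460 in that library to 1.24 in vit-5 RNAi replicate 1.

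Markers of other cell types moved with these ratios. The 8 oocyte markers summed to 4307, 3265 and 3321 FPKM in the controls and to 4197, 3723 and 2274 FPKM in vit-5 RNAi worms. The 7 body wall muscle markers summed to 850, 1137 and 1610 FPKM and to 914, 1082 and 1871 FPKM. The oocyte sum divided by the muscle sum was thus lowest, at 1.22, in vit-5 RNAi replicate 3, where the paralogue ratios were lowest, and 2.06 to 5.07 in the controls. The part of tissue makeup in the members' values was not tested.

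**Figure D4:**
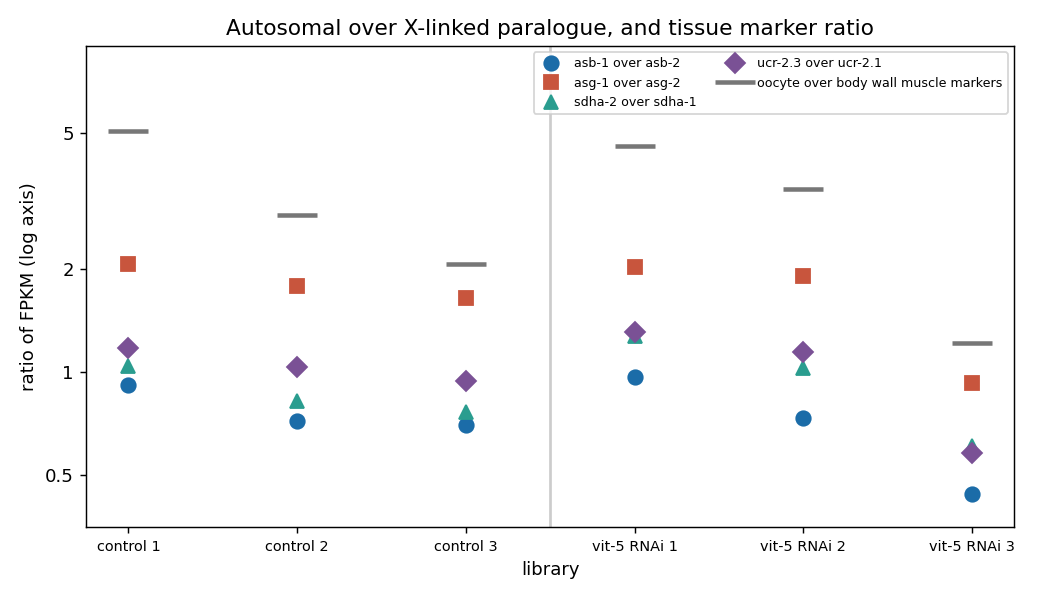
Ratio of FPKM (log axis) of 4 pairs of paralogues, asb-1 over asb-2, asg-1 over asg-2, sdha-2 over sdha-1 and ucr-2.3 over ucr-2.1, in each of the 6 libraries, with the summed oocyte markers over the summed body wall muscle markers as grey dashes. All 5 ratios are lowest in vit-5 RNAi replicate 3, at 0.437, 0.924, 0.607, 0.580 and 1.22.

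In each of these pairs the copy in the denominator lies on the X chromosome, whose genes are known to be largely silent in the germ line. This was looked at after the values had been seen, so it is given as a description. The 6 members on X (asb-2, asg-2, gas-1, sdha-1, ucr-2.1 and ucr-2.2) had vit-5 RNAi replicate 3 as their highest library in 6 of 6 cases, against 7 of the 36 members on autosomes (19.4%). Over all tested genes the share was 51.1% of 1901 genes on X and 34.3% of 10981 on autosomes. Levels of gas-1, the ubiquinone-side subunit of complex I, were 63.4, 74.7 and 79.1 FPKM in the controls against 53.8, 50.2 and 107 FPKM in vit-5 RNAi worms. The median log2 deviation of the members on X from the control mean was -0.23, 0.08 and 0.16 in the controls and -0.44, -0.21 and 0.34 in the vit-5 RNAi libraries, so the groups overlapped. Members on autosomes gave -0.11, 0.03 and 0.07 in the controls and -0.25, -0.19 and -0.09 in the vit-5 RNAi libraries, overlapping at control replicate 1 and vit-5 RNAi replicate 3.

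Library by library, the members as a whole stayed under the all-gene median in each treated library. Relative to all tested genes, their median log2 deviation from the control mean was -0.60, -0.47 and -0.41 in the 3 vit-5 RNAi libraries. The controls themselves spread from -0.25 in replicate 1 to 0.18 in replicate 2, with 0.07 in replicate 3. The distance from the lowest control to the highest treated library was therefore smaller than the spread among the controls. Control replicate 1 was the control nearest to the treated libraries in every complex, at -0.22 for complex I, -0.18 for complex II, -0.25 for complex III, -0.27 for complex IV and -0.30 for complex V. Treated values ran from -0.69 to -0.29 over the 5 complexes.

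**Figure D5:**
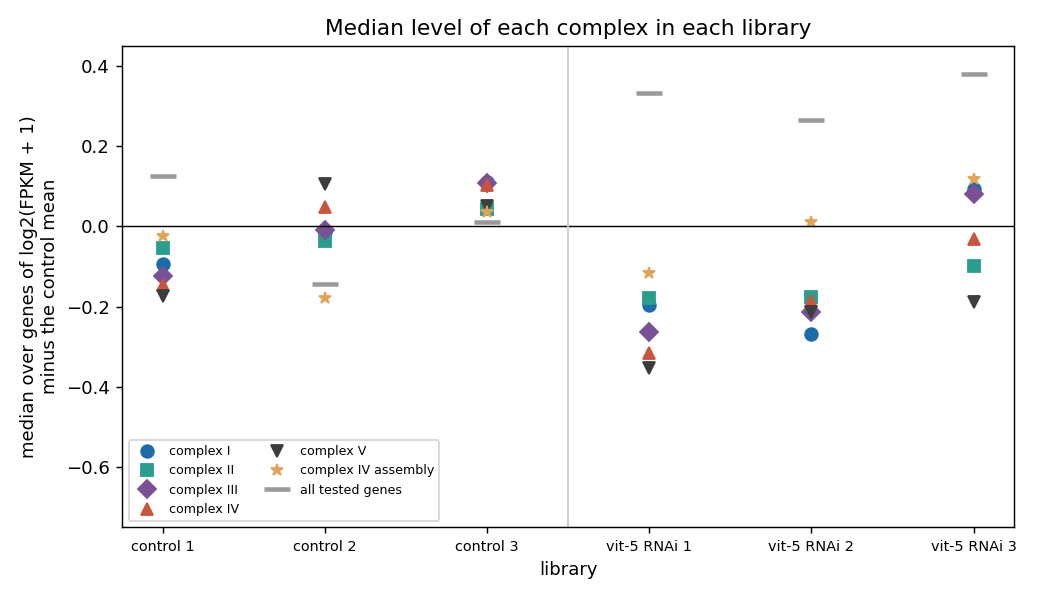
Median over the genes of each complex, and over all tested genes (grey dashes), of log2(FPKM + 1) minus the control mean, in the 3 control and the 3 vit-5 RNAi libraries. The dashes sit between 0.27 and 0.38 in the treated libraries, and the median of each group of members sits below its dash there.

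By single genes, the lowest of the 6 libraries was vit-5 RNAi replicate 1 for 23 members, replicate 2 for 9 and replicate 3 for 7, and control replicate 2 for 3. The highest was control replicate 2 for 13 members, control replicate 3 for 12, vit-5 RNAi replicate 3 for 13, control replicate 1 for 3 and vit-5 RNAi replicate 1 for 1. Larval cuticle and moulting genes, which differed between libraries as well, summed to 445 to 746 FPKM in the controls and to 579 to 992 FPKM in vit-5 RNAi worms. The 6 genes of this sum did not move together. Levels of dpy-17 were 320, 99.6 and 102 FPKM in the controls against 426, 340 and 89.1 FPKM in vit-5 RNAi worms. Those of rol-6 were 3.41, 107 and 117 FPKM against 3.15, 27.8 and 202 FPKM, with a like pattern in sqt-1 and dpy-13. The sum hides these differences. With it as a covariate in limma, 3 members (cox-4, cox-7C and R04F11.2) were lower at an adjusted p under 0.05, against 1.39% of all genes.

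Lists of further nuclear subunits were made for complexes I, III and V only, and these genes also lay mostly below 0. Of 22 other complex I subunits, 19 lay below 0 and 3 above, with a median of -0.14 and 0 of 22 with a limma adjusted p under 0.05. They ranged from F42G8.10, at 369 ± 58.7 and 280 ± 45.2 FPKM (log2 fold change -0.39 ± 0.18, SE), to nduf-6, at 158 ± 8.52 and 180 ± 20.4 FPKM (0.18 ± 0.14, SE). Of 4 other complex III subunits 3 lay below 0, from F45H10.2 (-0.30 ± 0.16, SE) to R07E4.3 on X (0.34 ± 0.23, SE), which relative to all genes was 0.00286 and without vit-5 RNAi replicate 3 was -0.18. Of 6 other complex V subunits and inhibitors 5 lay below 0, from F58F12.1, the delta subunit (-0.38 ± 0.19, SE), upward. The exception was mai-1, one of the inhibitor proteins of the ATP synthase, a gene on X that measured 20.2, 30.0 and 40.7 FPKM in the controls against 22.3, 39.9 and 87.6 FPKM in vit-5 RNAi worms. Relative to all genes its log2 fold change was 0.20, but -0.26 without vit-5 RNAi replicate 3 and -0.09 without control replicate 1. In these 2 lists 0 genes had a limma adjusted p under 0.05 as well. With the larval cuticle covariate, 2 genes of each of the 3 lists were lower at a limma adjusted p under 0.05 (1.39% of all genes), among them F42G8.10 (adjusted p = 0.0146), F45H10.2 (0.0490) and F58F12.1 (0.0331).

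Other assembly factors and genes of coenzyme Q synthesis serve the chain without being part of it. Both lists lay higher in median than the subunits, a difference that was not tested. They were also rarer. Their median level was 26.5 FPKM for the other assembly factors and 23.5 FPKM for coenzyme Q synthesis, against 367 FPKM for the 38 subunits. All genes of 10 to 100 FPKM had a median log2 fold change of 0.32. Of 10 other assembly factors 4 lay below 0 and 6 above, with a median of 0.23. They ran from sft-1, a homologue of the complex IV assembly factor SURF1 (log2 fold change -0.30 ± 0.18, SE), to nuaf-1, an assembly factor of complex I. The nuaf-1 levels were 10.3, 7.78 and 7.53 FPKM in the controls against 16.8, 12.8 and 12.7 FPKM in vit-5 RNAi worms, without overlap (log2 fold change 0.67 ± 0.23, SE; adjusted p = 0.136 by limma). Of these assembly factors 4, with nuaf-1, had wholly higher vit-5 RNAi values, as did 30.8% of all genes. Wholly lower values were seen in 2, with sft-1, against 3.15% of all genes. All 8 genes of coenzyme Q synthesis lay above 0, as 79.5% of all genes did, with a median of 0.34, equal to the all-gene shift. They ran from the methyltransferase gene coq-3 (0.04 ± 0.16, SE) to the kinase-like gene coq-8 (0.70 ± 0.24, SE; adjusted p = 0.137 by limma). In both lists 0 genes passed at an adjusted p under 0.05. With the larval cuticle covariate 2 genes of each list were higher at a limma adjusted p under 0.05, among them nuaf-1 (0.0181) and coq-8 (0.0130), against 28% of all genes. After median-of-ratios scaling the median of the assembly factors was -0.12 and that of coenzyme Q synthesis -0.01.

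The ADP/ATP carriers exchange the product of the ATP synthase across the inner membrane. Of 4 such genes 2 were tested. The more abundant carrier ant-1.1, at 4812 ± 529 FPKM in the controls against 3926 ± 128 FPKM in vit-5 RNAi worms, had a log2 fold change of -0.29 ± 0.13 (SE; adjusted p = 0.203 by limma). This lay between the quartiles, -0.35 and -0.09, of all genes of at least 1000 FPKM. The vit-5 RNAi values of ant-1.1 lay wholly under the controls, as in 18.8% of genes at that level. The rare ant-1.3 had -0.04 ± 0.19 (SE).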

How the data were processed

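Poly(A) status and strand were not given in the labels, whose protocols name Trizol extraction and the NEBNext Ultra kit. The authors deposited 1 table of FPKM values for each library, with no counts, in which zero is written as 0.0001. Per the submitters' processing notes, the tools were Bowtie2 2.2.3, TopHat2 2.0.12, HTSeq 0.6.1 and DESeq 1.18.0 with genome build WBcel235. No source used here names the program behind the FPKM. FPKM divides by a library's total, so a few abundant genes or ribosomal RNA can shift all others, and depth is unknown.

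From these values log2(FPKM + 1) was tested with limma 3.58.1 in R 4.3.3, with a mean-variance trend, group as the only term, 2-sided, and Benjamini-Hochberg adjustment over all 12908 genes that reached 1 FPKM in 3 or more libraries. The pseudocount understates fold changes of low genes. Fold changes take the control from vit-5 RNAi, and values relative to all genes have the all-gene median subtracted. Gene positions are those of the RefSeq gene table for WBcel235, and overlaps used Ensembl release 115. Of 45132 gene identifiers 45010 were in that table. An intestine marker, opt-2, was not matched.

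In each complex the text names the most abundant, the lowest and the highest member by fold change, all paralogues and assembly factors, and members whose groups did not overlap; of other lists it names the lowest and highest gene. The members and lists were chosen with earlier results of these data known. Libraries correlated at 0.927 to 0.989 within a group and at 0.928 to 0.984 between groups (Pearson, log2 scale, across genes), control replicate 1 more closely with vit-5 RNAi replicates 1 and 2 than with either other control, and no pair of libraries shared more than 0.0697% of equal values. Alternatives were another pseudocount, no filter, 3 scalings, genes left out, covariates and each library left out.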

Additional observations from a re-analysis of the deposited data

How the results depend on the processing

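In 16 of 17 other settings, the exception being quantile scaling, at least 41 of 42 members lay below the all-gene median. That median was 0.03 with median-of-ratios, 0.10 with upper-quartile and 0.01 with quantile scaling, 0.16 without a filter on low values and 0.22 when the 2 libraries richest in ribosomal RNA (control replicate 2 and vit-5 RNAi replicate 3) were left out. Over all tested genes limma called 0 at an adjusted p under 0.05 and 3495 at an unadjusted one. The adjusted count was 3790 with the larval cuticle level as covariate, 4 with the ribosomal RNA level as covariate, 2 among protein-coding genes only, and 0 to 5 with 1 library left out (4 when it was vit-5 RNAi replicate 1 and 5 when it was replicate 3). Of the members, 3 were called with the larval cuticle covariate.

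Replicate numbers were not shown to pair the libraries. Same-numbered libraries correlated in their deviations from the group means (across genes) at 0.753, 0.0339 and 0.681, and control replicate 2 correlated best with vit-5 RNAi replicate 3. With a replicate block, limma called 3806 genes, 127 lower (0.984%) and 3679 higher (28.5%), among them 1 member, cox-4, lower with an adjusted p of 0.0356. At an unadjusted p, 6 members were lower (3.07% of all genes) and 1 higher (41.9%) under the block. Of the other lists the block called F42G8.10, F58F12.1 and mai-2 lower, and clk-1, coq-8, nuaf-1 and nuaf-3 higher.

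Members lower at an unadjusted p under 0.05, each with the share of all genes, numbered 28 with median-of-ratios scaling (12.1%), 26 with upper-quartile scaling (8.67%), 10 with the larval cuticle covariate (3.57%), 4 with the ribosomal RNA covariate (3.28%), 2 without a filter (0.864%), 2 with ribosomal RNA and vitellogenin genes out of the sum (1.05%), 0 without the libraries richest in ribosomal RNA (0.442%), and 0 to 6 with 1 library left out (0.209% to 1.32%). With quantile scaling 1 member passed, counting both directions, beside 5.77% of all genes lower and 5.77% higher. Members with wholly lower vit-5 RNAi values numbered 26 with median-of-ratios scaling (16.3%), 23 with upper-quartile scaling (12.4%), 25 without the libraries richest in ribosomal RNA (7.37%) and 11 to 25 with 1 library left out (4.18% to 5.76%), and wholly higher members 0 to 1.

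The members' median log2 fold change was -0.54 with median-of-ratios and -0.46 with upper-quartile scaling. Relative to all genes it was -0.34 without a filter and -0.15 with quantile scaling. In the same order it was -0.32 and -0.17 for complex I, -0.28 and -0.15 for complex II, and -0.084 and -0.39 for the assembly factors, which had -0.37 without the libraries richest in ribosomal RNA. With quantile scaling it was -0.16 for complex III, -0.034 for complex IV and -0.11 for complex V.

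Relative values of these genes changed sign in some settings. With quantile scaling cox-5A had 0.0087, cox-6A 0.012, cyc-2.1 0.052, ucr-11 0.042, nduf-6 0.14 and nuo-4 0.19. Without a filter nduf-6 had 0.023 and nuo-4 0.15, and nuo-4 had 0.011 with the ribosomal RNA covariate and -0.15 to 0.071 with 1 library left out. R07E4.3 had -0.13 with the larval cuticle covariate, -0.045 with median-of-ratios scaling, -0.0021 among protein-coding genes, -0.040 with a pseudocount of 0.1, -0.034 with upper-quartile scaling, -0.097 without the libraries richest in ribosomal RNA and -0.18 to 0.20 with 1 library left out. mai-1 had -0.12 with the larval cuticle covariate, -0.17 without the libraries richest in ribosomal RNA and -0.26 to 0.65 with 1 library left out. The cause was not tested for any of these changes. Depth is unknown, so no limit from counting can be given.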
